A study of Homo sapiens with 9 samples.

Results

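The genes described here are 10 named genes of the antibody molecule, 10 of the 58243 gene identifiers in each count table. They are 7 heavy-chain constant region genes (IGHM, IGHD, IGHG1, IGHG2, IGHG3, IGHG4 and IGHA1), the light-chain constant region genes IGKC and IGLC2, and JCHAIN, which encodes the joining chain. The rule that chose them uses their names and no measured value, and it was set with earlier results of these data known. RNA-seq was made from the DOHH2 cell line, which derives from a human B-cell lymphoma, to compare the cells before and after growth in mouse bone marrow. The culture group (day 0) held 3 libraries of cells cultured on the days of grafting. The other 2 groups, day 19 and day 40 after grafting, each held 3 libraries of human cells sorted by flow cytometry for human CD20 from the femurs of RAGγc mice grafted with DOHH2. The labels name no engineered allele of the DOHH2 cells and no drug treatment. The host genotype, shared by both femur groups, is given only by the name RAGγc. Nothing is given on the number or age of the mice, or on whether the libraries of a group came from separate animals or cultures. P-values therefore measure the spread between these libraries, which may be technical. Per the labels' protocol, femur cells went through enzyme digestion, bead depletion of mouse CD45 and Ter119 cells, and sorting, and no such steps are described for the cultured cells. Growth in the mouse and these steps cannot be told apart. By the dates in the titles, the day 40 libraries followed the culture library of their sampling period by 11, 26 and 39 days, and the day 19 libraries by 18, 19 and 19 days. If these are sampling dates, day 40 libraries 1 and 2 came from cells grafted before the day of that culture library.

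An antibody pairs heavy chains with light chains, and the constant region gene that the heavy chain uses sets its class: mu, delta, gamma, epsilon or alpha for IgM, IgD, IgG, IgE or IgA. A B cell first joins its rearranged variable segment to IGHM and IGHD, and class switch recombination can later delete these genes from that allele and bring a downstream constant gene next to the variable segment. Light chains are kappa or lambda, and most B cells express only one of them. JCHAIN links IgM and IgA into polymers and is also expressed by B cells that make other classes.

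DOHH2 libraries read as gamma and lambda in culture and in femurs. The libraries held 21071239 to 29456271 counts, of which the constant region genes and JCHAIN took 0.355% to 0.473%. Levels are CPM, counts scaled to the library size after TMM normalization, and only levels divided by exon length (CPM per kb) are compared between genes. On that scale the order in culture was IGLC3 at 1487 ± 346 CPM per kb (SD, n = 3), IGHG4 at 831 ± 103, JCHAIN at 664 ± 123, IGHG2 at 81.0 ± 7.53, IGHG1 at 41.5 ± 4.11, IGHG3 at 11.2 ± 0.918 and IGHA1 at 1.11 ± 0.178. IGLC3, a lambda gene next to IGLC2, was not among the 10 genes and is described because nearly all light-chain counts lay there. The ranges of IGHG4 and JCHAIN over the culture libraries overlapped. In femurs IGHG1 stood above IGHG2, the reverse of culture: at day 19 IGHG1 read 70.3 ± 2.07 and IGHG2 41.1 ± 2.53 CPM per kb, and at day 40 60.1 ± 6.95 and 45.3 ± 2.48.

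Counted together, 6 of the 10 genes passed the filter on low counts: IGHG1, IGHG2, IGHG3, IGHG4, IGHA1 and JCHAIN. IGHM, IGHD, IGKC and IGLC2 had too few counts to be tested. Genes were called at an adjusted p under 0.05 in edgeR's quasi-likelihood test, adjusted over all genes. At day 19 against culture 5 of these 6 were called, 3 higher and 2 lower, where 52.8% of the 15163 genes tested were called, 26.3% higher and 26.5% lower. At day 40 against culture 4 were called, 2 higher and 2 lower, beside 46.6% of all genes, 23.3% in each direction. At day 40 against day 19 only IGHA1 was called, beside 4.68% of all genes, 3.23% higher and 1.45% lower. This main test leaves out the sampling periods of the libraries, and a block by period changed no call of a member. In all, 5 of the 6 had CPM values that did not overlap between day 19 and culture (61.5% of all genes), 4 between day 40 and culture (54.8%), and 4 between the femur groups (26.6%). The comparisons with culture share the culture libraries and are not independent of each other. With this share of all genes called, a call against culture does not set a gene apart.

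**Figure D1:**
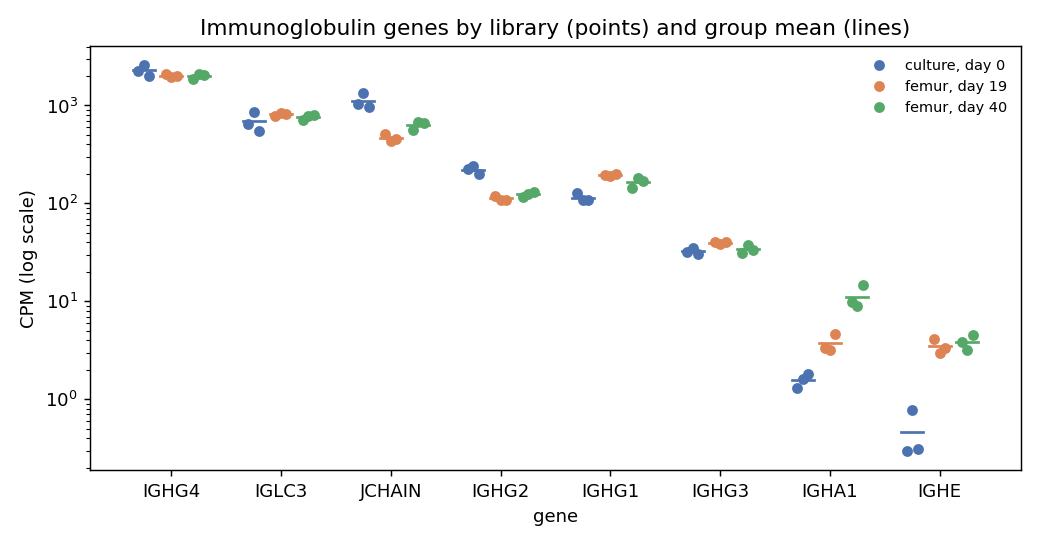
Each point is 1 library and each line the mean of 3 libraries, as CPM on a log axis, for the 6 tested members and for IGLC3 and IGHE. IGHG2 and JCHAIN were lower and IGHG1, IGHA1 and IGHE higher in every femur library than in every culture library, while IGHG4 and IGLC3 overlapped.

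The gamma genes encode the 4 IgG subclasses, which differ most in the hinge, the flexible stretch between the antigen-binding arms and the Fc part. The first hinge exon of each is shown because it marks the subclasses apart in genes that are otherwise close to identical. Capitals mark the exon, and lower case marks 20 bases of the spliced transcript on each side, 5′ to 3′, from GENCODE release 29 (GRCh38, minus strand). The exons lie at chr14:105770669-105770719 (IGHG3), chr14:105742341-105742385 (IGHG1), chr14:105644068-105644103 (IGHG2) and chr14:105625344-105625379 (IGHG4).
IGHG3: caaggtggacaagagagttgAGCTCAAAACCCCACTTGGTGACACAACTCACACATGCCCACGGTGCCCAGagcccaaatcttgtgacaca
IGHG1: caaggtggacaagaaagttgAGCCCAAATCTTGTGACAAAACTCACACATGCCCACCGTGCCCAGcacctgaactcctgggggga
IGHG2: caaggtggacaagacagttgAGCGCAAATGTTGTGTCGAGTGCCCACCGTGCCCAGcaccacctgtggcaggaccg
IGHG4: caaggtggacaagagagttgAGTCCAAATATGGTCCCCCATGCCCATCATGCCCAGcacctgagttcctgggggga

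The exons are 51, 45, 36 and 36 bases long, and IGHG3 has 4 hinge exons with 186 bases in all. Over the aligned coding sequence, with gaps counted as differences, IGHG4 was 94.4% identical to IGHG1, 95.02% to IGHG2 and 82.2% to IGHG3. The value for IGHG3 includes its greater length: 930 bases were identical over 1131 aligned columns, with 981 coding bases in IGHG4 and 1130 in IGHG3. Of the 50-base windows of the reference transcript, 57.7% were unique to IGHG4, 45.6% to IGHG1, 52.98% to IGHG2 and 54.2% to IGHG3, and of the 100-base windows 87.8%, 69.7%, 79.9% and 78.8%. How reads that fit several genes were counted is not given in the sources used here, so the split of counts among these 4 genes is uncertain, and its part in the results below was not tested. IGHG2 and IGHG4 also each overlap a microRNA gene on the opposite strand.

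Among the heavy-chain genes, IGHM, at the 5′ end of the locus (chr14:105851705-105856218, minus strand), encodes the constant region of IgM. It had 0, 0 and 0 counts in the culture libraries, 1, 0 and 0 in those of day 19 and 1, 1 and 1 in those of day 40. IGHD (chr14:105836765-105845678), which encodes that of IgD, had 0 counts in all 9 libraries. A count of 0 over the 3 culture libraries allows up to 3 counts, or 0.0405 CPM, and this limit covers counting error only. All 50-base windows of the IGHM and IGHD reference transcripts were unique to those genes. Neither gene was at a level where a change could be detected at this depth.

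IGHG4 (ENSG00000211892, chr14:105620506-105626066, minus strand) was the highest heavy-chain gene per length in every group, at 831, 732 and 732 CPM per kb. It read 2240.01, 2577 and 2018 CPM in culture, 2074, 1954 and 1989.5 at day 19 and 1870.3, 2099 and 2047 at day 40. The second culture library was the highest of the 9, and the third culture library lay among the femur libraries, so the groups overlapped. Its log2 fold change was -0.18 (SE 0.09) at day 19 and -0.18 (SE 0.09) at day 40 against culture, with adjusted p = 0.116 and 0.125 in edgeR's quasi-likelihood test, and neither passed the threshold of 0.05. Without the third culture library both passed, at -0.27 (adjusted p = 0.0218 in edgeR's test) and -0.27 (adjusted p = 0.0247), and over all alternatives the adjusted p ran from 0.0218 to 0.332 and from 0.0247 to 0.315.

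IGHG2 (ENSG00000211893, chr14:105639559-105644790) fell. It read 227, 239 and 199 CPM in culture, 120.4, 109 and 108 at day 19 and 117, 124 and 131 at day 40. Every culture library was higher than every femur library. The level at day 19 was 112 ± 6.93 CPM against 222 ± 20.6 in culture (SD, n = 3), a log2 fold change of -0.98 (SE 0.08, adjusted p = 8.93e-07, edgeR). At day 40 it was 124 ± 6.79 CPM, a change of -0.84 (SE 0.08, adjusted p = 5.67e-06, edgeR). IGHG2 did not differ between the femur groups beyond the threshold (0.14, adjusted p = 0.418, edgeR).

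IGHG1 (ENSG00000211896, chr14:105736343-105743071) rose. It read 128, 109 and 107 CPM in culture, 194, 189 and 200.04 at day 19 and 145, 182 and 171 at day 40. Every femur library was higher than every culture library, and the day 40 libraries all lay below the day 19 ones. The log2 fold change against culture was 0.76 (SE 0.09, adjusted p = 2.41e-05, edgeR) at day 19 and 0.54 (SE 0.09, adjusted p = 5.13e-04, edgeR) at day 40. Between the femur groups it was -0.23 (adjusted p = 0.218, edgeR), which did not pass.

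IGHG3 (ENSG00000211897, chr14:105764503-105771405), the first gamma gene of the locus, rose at day 19 and was not called at day 40. It read 31.9, 35.3 and 30.1 CPM in culture, 40.1, 38.4 and 40.2 at day 19 and 31.4, 37.2 and 33.3 at day 40. All day 19 libraries were above all culture libraries, while the day 40 libraries overlapped with culture. The log2 fold change was 0.29 (SE 0.09, adjusted p = 0.0133, edgeR) at day 19 and 0.07 (SE 0.09, adjusted p = 0.537, edgeR) at day 40, and -0.22 (adjusted p = 0.2, edgeR) between the femur groups. The day 19 call was lost without the third culture library (adjusted p = 0.0634, edgeR) or the third day 19 library (adjusted p = 0.0511; range over all alternatives 0.00144 to 0.0634), and the day 40 value turned to -0.0138 without the second day 40 library.

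Within each library IGHG1 and IGHG2 exchanged places while IGHG4 kept most of the gamma counts. These within-library ratios were chosen after the values had been seen. They do not depend on the scaling between libraries. Of the gamma counts IGHG2 held 8.63, 8.09 and 8.46% in culture, 4.96, 4.75 and 4.63% at day 19 and 5.41, 5.09 and 5.49% at day 40. IGHG1 held 4.86, 3.67 and 4.56% in culture, 7.98, 8.24 and 8.56% at day 19 and 6.70, 7.47 and 7.17% at day 40. For both genes the 3 groups did not overlap, and the day 40 libraries lay between culture and day 19. IGHG3 took 1.23 ± 0.0447% (SD, n = 3), 1.68 ± 0.0348% and 1.46 ± 0.0632%, and IGHG4 86.0 ± 0.918%, 85.3 ± 0.165% and 86.1 ± 0.294%. The exact two-sided permutation test gave p = 0.1 for IGHG1, IGHG2 and IGHG3 in each comparison, the smallest value that 3 libraries against 3 allow, and an adjusted p of 0.132 over 33 such tests, so none could pass. For the IGHG4 share the exact permutation p was 0.3 at day 19 and 0.8 at day 40 against culture, where the groups overlapped. Between the femur groups the IGHG4 share did not overlap, being higher in every day 40 library, with the smallest exact p of 0.1 (adjusted p = 0.132). The gamma genes summed read 2647 ± 303 CPM in culture, 2352 ± 70.6 at day 19 and 2329 ± 147 at day 40, and the sum was not called in any comparison (adjusted p = 0.139, 0.120 and 0.965 in edgeR's test).

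**Figure D2:**
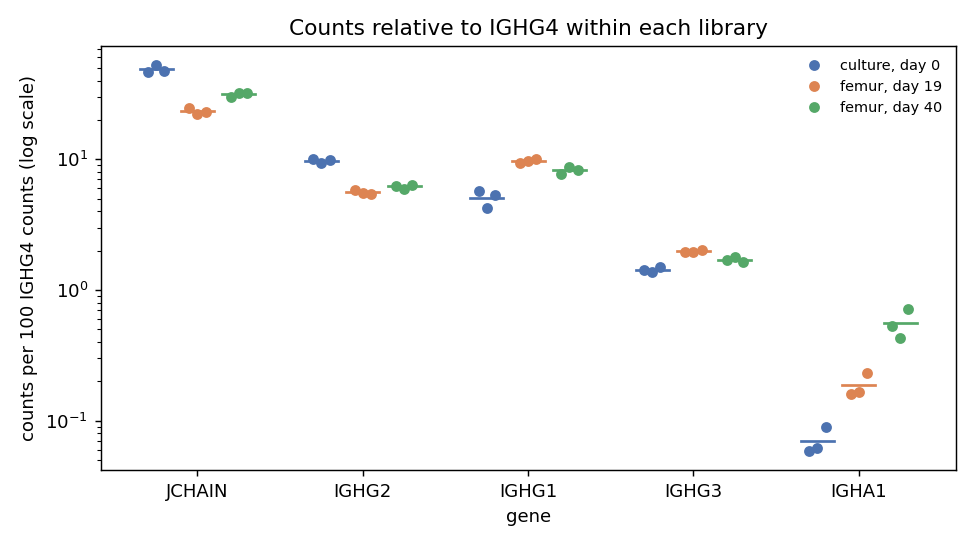
Counts of JCHAIN, IGHG2, IGHG1, IGHG3 and IGHA1 per 100 IGHG4 counts of the same library, on a log axis (points, libraries; lines, means of 3). JCHAIN fell from 48.7 per 100 IGHG4 counts in culture to 23.4 at day 19 and stood at 31.4 at day 40, and the culture points of no gene overlap with its femur points.

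IGHA1 (ENSG00000211895, chr14:105703995-105708665, minus strand), which encodes the constant region of IgA1, rose in 2 steps from a low level. It had 31, 35 and 47 counts in the culture libraries, 76, 69 and 110 in those of day 19 and 275, 268 and 356 in those of day 40. As levels these were 1.32, 1.59 and 1.82 CPM in culture, 3.34, 3.21 and 4.65 at day 19 and 9.96, 8.99 and 14.6 at day 40. The 3 groups did not overlap: every day 19 library was above every culture library, and every day 40 library above every day 19 library. The log2 fold change was 1.24 (SE 0.25, adjusted p = 0.00119, edgeR) at day 19 and 2.82 (SE 0.24, adjusted p = 2.32e-06, edgeR) at day 40 against culture. Between day 40 and day 19 it was 1.57 (SE 0.22, adjusted p = 0.00143, edgeR), a 2.98-fold rise. The call held in all 3 comparisons under each of the 17 alternatives run. Even at day 40 the level was 7.86 CPM per kb against 732 for IGHG4.

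IGHA1 shares its sequence with IGHA2, to which it was 92.5% identical over the coding part with gaps counted as differences. Of the 50-base windows of IGHA1, 67.5% were unique. IGHA2, for the IgA2 subclass, had 6, 4 and 2 counts in the culture libraries, 5, 6 and 4 in those of day 19 and 16, 16 and 11 in those of day 40. It was called higher at day 40 against culture (log2 fold change 1.60, SE 0.44, adjusted p = 0.0102, edgeR) and in neither of the other comparisons, and over the alternatives that adjusted p ran from 0.00809 to 0.0671, with the call lost under 1. The alpha genes together took 0.0668 ± 0.0120% of heavy-chain constant counts at day 0, 0.168 ± 0.0326% at day 19 and 0.499 ± 0.120% at day 40, each with the SD of 3 libraries, and gamma took 99.9 ± 0.0115%, 99.7 ± 0.0330% and 99.3 ± 0.150%. The groups did not overlap for either share, with p = 0.1 in the exact permutation test, the smallest possible, and an adjusted p of 0.191 over 21 tests of class shares and of the heavy to light ratio. The alpha sum rose by 1.18, 2.73 and 1.56 on the log2 scale at day 19 and day 40 against culture and at day 40 against day 19 (adjusted p = 9.21e-04, 1.43e-06 and 8.75e-04, edgeR). In that table of class sums 52.8%, 46.6% and 4.7% of all features were called.

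IGHE, the IgE gene between IGHG4 and IGHA2, is not one of the 10 but belongs to the same locus and rose at both femur times. It had 7, 17 and 8 counts in the culture libraries, 94, 64 and 79 in those of day 19 and 105, 94 and 111 in those of day 40. Its log2 fold change was 2.93 (SE 0.33, adjusted p = 1.53e-05, edgeR) at day 19 and 3.07 (SE 0.33, adjusted p = 1.57e-05, edgeR) at day 40. It read 3.48 ± 0.590 CPM at day 19 and 3.83 ± 0.699 CPM at day 40, and these overlapped (adjusted p = 0.873, edgeR). The gamma pseudogene IGHGP was not called in any comparison (adjusted p = 0.124, 0.253 and 0.873 in edgeR's test).

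**Figure D3:**
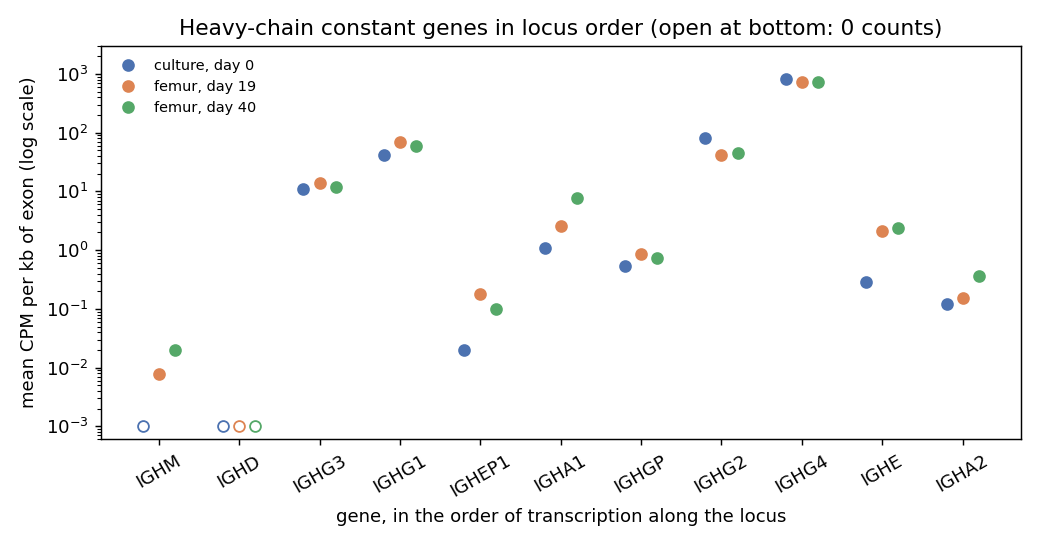
Mean CPM per kb of exon of each group on a log axis, with the heavy-chain constant genes in the order of transcription along the locus (open points at the bottom had 0 counts). IGHG4 stands highest in every group, at 831, 732 and 732 CPM per kb, while IGHM and IGHD at the start of the locus are at or near 0.

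Among the light-chain genes, IGKC (ENSG00000211592, chr2:88857161-88857683, minus strand), which encodes the kappa constant region, had 0, 1 and 0 counts in the culture libraries, 1, 0 and 0 in those of day 19 and 0, 2 and 1 in those of day 40. All 50-base windows of its reference transcript were unique to it. IGLC2 (ENSG00000211677, chr22:22900976-22901437, plus strand), a lambda constant region gene, had 5, 8 and 5 counts in the culture libraries, 7, 7 and 7 in those of day 19 and 11, 1 and 8 in those of day 40. Its neighbour IGLC3 (chr22:22906342-22906803) had 15241, 18962 and 14220, then 17900, 17820 and 19194, then 19711, 23569 and 19493. In every library nearly all lambda counts lay in IGLC3.

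The first 300 bases of the 317-base coding parts of these lambda genes are shown because they are nearly the same sequence and yet differ this much in counts. Both are from GENCODE release 29 (GRCh38), 5′ to 3′ on the plus strand, at chr22:22900976-22901275 for IGLC2 and chr22:22906342-22906641 for IGLC3, and capitals mark the bases that differ.
IGLC2: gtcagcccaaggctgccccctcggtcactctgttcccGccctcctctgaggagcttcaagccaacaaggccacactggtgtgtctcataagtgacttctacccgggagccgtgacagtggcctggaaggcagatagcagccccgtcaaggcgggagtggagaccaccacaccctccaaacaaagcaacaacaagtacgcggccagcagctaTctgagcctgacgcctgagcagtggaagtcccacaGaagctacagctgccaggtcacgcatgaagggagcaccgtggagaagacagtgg
IGLC3: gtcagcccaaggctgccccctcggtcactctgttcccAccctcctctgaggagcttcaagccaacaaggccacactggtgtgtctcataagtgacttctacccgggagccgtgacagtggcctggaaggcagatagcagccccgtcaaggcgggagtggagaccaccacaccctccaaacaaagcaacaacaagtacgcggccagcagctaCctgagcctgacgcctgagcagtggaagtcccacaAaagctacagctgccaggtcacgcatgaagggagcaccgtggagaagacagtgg
Counted from the first base shown, with the IGLC2 base first and the IGLC3 base last, the differences are G38A, T212C and G247A, and the rest of the 462-base transcripts adds A328T. The longest run that both share is 173 bases. In the reference, 33.9% of the 50-base windows of IGLC2 and 32.9% of those of IGLC3 were unique, and 70.0% of the 100-base windows of each. A read within a shared run cannot be assigned to either gene, and whether such reads were counted is not given in the sources used here.

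IGLC3 read 647, 863 and 551 CPM in culture, 787, 829.8 and 811 at day 19 and 714, 790.2 and 799 at day 40. The second culture library was the highest of the 9 and the third culture library the lowest, so the groups overlapped. It was not called (log2 fold change 0.24, 0.16 and -0.08; adjusted p = 0.137, 0.323 and 0.845 at day 19 and day 40 against culture and at day 40 against day 19, edgeR). IGLC1 had 0 counts in all libraries, but it lies wholly within exons of IGLL5 and none of its windows is unique, so its level cannot be read. IGLC7 rose from 0.115 ± 0.0584 CPM in culture to 1.32 ± 0.349 at day 19 and 2.71 ± 1.36 at day 40 (log2 fold change 3.49 and 4.54, adjusted p = 2.27e-04 and 2.33e-05, edgeR), from a total of 8 counts in culture. The lambda pseudogene IGLC6 was also called higher at both times, from 4 counts in culture to 56 at day 19 and 46 at day 40, and IGLC5 was not called.

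The ratio of heavy-chain to light-chain constant counts was lower in femurs. On the log2 scale, and not corrected for gene length, it was 2.02, 1.78 and 2.09 in culture, 1.62, 1.46 and 1.53 at day 19 and 1.60, 1.63 and 1.58 at day 40. All femur libraries lay below all culture libraries, and the femur groups overlapped. The exact two-sided permutation test gave p = 0.1 at both times, the smallest value possible (adjusted p = 0.191 over 21 tests). Neither the gamma sum nor the lambda sum was called on its own (lambda: adjusted p = 0.131, 0.306 and 0.849 in edgeR's test).

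In each of the 3 loci the leading variable segment was the same in all 9 libraries. Of all IGLV counts, IGLV2-11 (chr22:22792491-22793007) took 94.8% to 96.4% in the 9 libraries, and IGLV5-52 came next with 0.606% to 1.04%. IGLV2-11 had 84.8 ± 8.29 counts per 100 IGLC3 counts at day 0, 82.5 ± 2.99 at day 19 and 83.9 ± 2.46 at day 40, each with the SD of 3 libraries. On the heavy-chain side IGHV3-15 (chr14:106153624-106154163) took 37.2% to 45.6% of IGHV counts, and the pseudogene IGHV5-78 came next with 23.0% to 33.2%. IGHV3-15 counts were few, at 0.841 ± 0.0505, 0.866 ± 0.0228 and 0.891 ± 0.0364 per 100 gamma counts. Kappa variable segments were also counted, although IGKC was at or near 0. IGKV1D-8 (chr2:90220727-90221384) took 70.2% to 80.3% of IGKV counts, with 308, 421 and 383 counts in the culture libraries, 195, 211 and 210 in those of day 19 and 247, 329 and 318 in those of day 40. Its CPM was higher in every culture library than in every femur library. It was called lower at both times (log2 fold change -0.79 and -0.51, adjusted p = 0.0017 and 0.0212, edgeR), though at day 40 not without culture library 2 (adjusted p = 0.0775) or day 40 library 1 (adjusted p = 0.0791). IGKV1OR2-108, a segment outside the kappa locus, came next with 1.08% to 7.30% of IGKV counts. It had few counts, 94 over the culture libraries, 15 over those of day 19 and 53 over those of day 40. It was also called lower at both times (log2 fold change -2.56 and -1.04, adjusted p = 5.44e-04 and 0.0379, edgeR). The day 40 call was lost under several alternatives, among them DESeq2 (adjusted p = 0.0846). These counts are against reference segments, and a mutated rearranged segment may not align to them, which was not tested.

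JCHAIN (ENSG00000132465, chr4:70655541-70681817, minus strand) encodes the joining chain, which links IgM and IgA into polymers and binds the polymeric immunoglobulin receptor. Of the 10 genes it was the only one with an entry in the RefSeq promoter table (GRCh38.p14), and the 250 bases before that start, chr4:70666509-70666758 on the minus strand, are shown because JCHAIN had the largest fall of the members at day 19. Capitals mark matches to the E-box motif CANNTG, which reads the same on both strands.
JCHAIN: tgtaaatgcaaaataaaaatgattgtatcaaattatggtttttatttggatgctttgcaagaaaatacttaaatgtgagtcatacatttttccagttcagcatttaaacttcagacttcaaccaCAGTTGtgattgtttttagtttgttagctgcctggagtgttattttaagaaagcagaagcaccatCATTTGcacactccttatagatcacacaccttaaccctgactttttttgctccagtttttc
The window held 2 E-box matches that do not overlap, and 61.8% of the 35116 promoters in the table held at least 1 in the same 250 bases. It held no match to the octamer ATGCAAAT on either strand, which 1.63% of the promoters held. A match is a description of the letters in this window.

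JCHAIN fell at both femur times. It read 1042, 1349.6 and 956 CPM in culture, 515, 433 and 459.9 at day 19 and 558, 679 and 656 at day 40. Every culture library was above every femur library, and every day 40 library above every day 19 library. The level of 1116 ± 207 CPM in culture went to 469 ± 41.6 at day 19 (SD, n = 3), a log2 fold change of -1.25 (SE 0.12, adjusted p = 5.22e-06, edgeR), 2.38-fold lower. At day 40 it was 631 ± 64.1 CPM, a change of -0.82 (SE 0.12, adjusted p = 2.13e-04, edgeR). The difference between day 40 and day 19 was 0.43 (SE 0.12) and did not pass in edgeR's test (adjusted p = 0.074), but it passed with DESeq2 (adjusted p = 0.0133) and under 5 other alternatives, with adjusted p from 7.79e-06 to 0.290 over the 17 run. Per 100 IGHG4 counts of the same library there were 46.5, 52.4 and 47.4 JCHAIN counts at day 0, 24.8, 22.2 and 23.1 at day 19 and 29.8, 32.3 and 32.1 at day 40, without overlap. JCHAIN shares 87 exonic bases with ENAM on the opposite strand, and the strand setting of the counting is not given in the sources used here. In these bulk libraries, fewer cells that express a gene and less RNA per cell cannot be told apart.

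**Figure D4:**
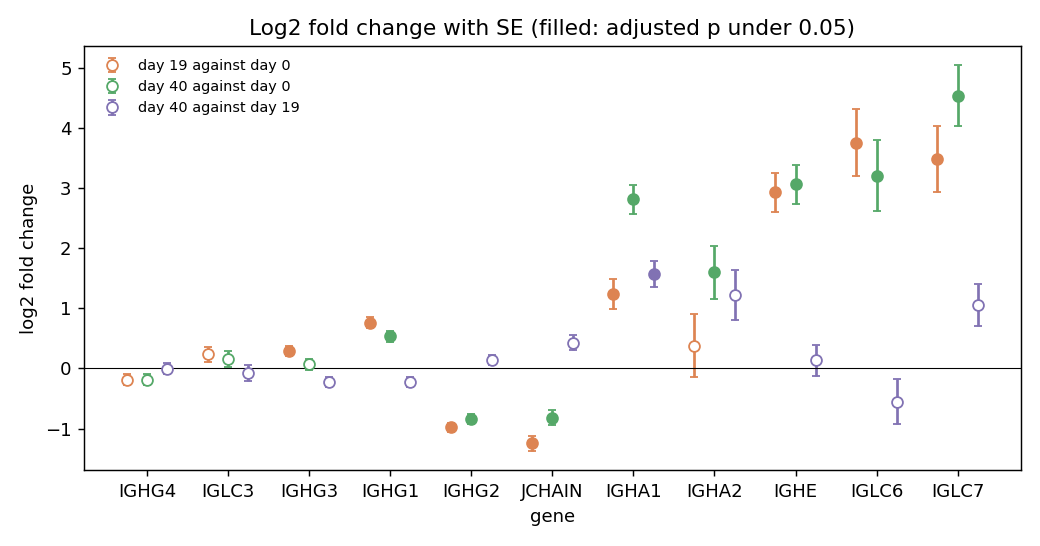
Log2 fold changes with their SE from edgeR for 6 members and 5 other constant region genes in the 3 comparisons (filled points, adjusted p under 0.05). IGHG2 and JCHAIN lie below 0 at both times against culture, and IGHA1 is the 1 gene filled in the comparison of day 40 with day 19, at 1.57.

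The genes whose pattern over the 9 libraries was most like that of a member were looked up among 9939 genes by Pearson's r of log2 CPM, as a description, since all points share the same libraries and scaling. Closest to JCHAIN were GRSF1 (r = 0.996), SKAP2, LSM10, GRN and ARPC5 (r = 0.99 each). GRSF1, an RNA-binding protein gene, lies at chr4:70815782-70839945, 134 kb from JCHAIN and on the same strand. SKAP2, LSM10, GRN and ARPC5 lie on chromosomes 7, 1, 17 and 1. GRSF1 read 211 ± 10.2, 167 ± 5.20 and 181 ± 4.43 CPM at day 0, 19 and 40 (SD, n = 3). Closest to IGHG4 were RACK1, SMAP2, NOB1, METTL9 and MPLKIP (r = 0.96 to 0.97), and closest to IGLC3 were ARHGAP15, SUSD3, TMPO, UBAC2 and GCSAM (r = 0.94 to 0.98). RACK1, a ribosomal protein, read 2070.0 ± 320.0 CPM in culture, 1752 ± 40.6 at day 19 and 1760.1 ± 109 at day 40.

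Genes of class switching and somatic mutation were called in both directions, at day 40 in a share near that of all genes. Of 27 genes, all tested, 12 were higher and 7 lower at day 19 against culture (70.4% called, beside 52.8% of all genes), and 9 and 4 at day 40 against culture (48.1%, beside 46.6%). At day 40 against day 19 the 1 call (3.70%, beside 4.68% of all genes) was UNG, lower (adjusted p = 0.0491, edgeR). It was lost with the replicate block by sampling period (adjusted p = 0.0538). At day 19 LIG4, the ligase of end joining, rose by 1.18 on the log2 scale (adjusted p = 1.12e-06, edgeR). UNG, which removes uracil from DNA, rose by 0.39 and H2AX by 0.45 (adjusted p = 1.25e-04 and 1.95e-04, edgeR). XRCC4, the partner of LIG4, had a log2 fold change of -0.91 (adjusted p = 2.30e-04, edgeR). At day 40 EXO1, an exonuclease of mismatch repair, rose by 0.40 (adjusted p = 0.00232, edgeR). At that time REV1, a translesion polymerase, rose by 0.29, and XRCC5, a Ku subunit, had a log2 fold change of -0.31 (adjusted p = 0.00226 and 0.00197, edgeR). The highest gene of the list not called was PRKDC, at 1023 ± 219 CPM in culture and 1071 ± 9.46 at day 19. The list's median log2 fold change was 0.16 at day 19, 0.16 at day 40 and -0.03 between the femur groups, where all genes had medians of 0.01, 0.01 and 0.00.

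Transcription factors that act on immunoglobulin genes moved in both directions. Of 26 listed and tested, 9 were higher and 10 lower at day 19 against culture (73.1% called, beside 52.8% of all genes), and 9 and 8 at day 40 (65.4%, beside 46.6%). Between the femur groups 3 were higher and 3 lower (23.1% called, beside 4.68% of all genes). The list's median in the 3 comparisons was 0.03, 0.01 and 0.03. IRF4, a factor of plasma cell differentiation and class switching, had 5, 0 and 0 counts in the culture libraries, 137, 182 and 75 in those of day 19 and 126, 231 and 94 in those of day 40, and was called higher at both times (adjusted p = 1.27e-05 and 2.38e-05, edgeR). PRDM1, the plasma cell repressor that silences the B-cell programme, read 0.213 ± 0.0972, 0.537 ± 0.222 and 0.950 ± 0.585 CPM and was called at day 40 against culture (log2 fold change 2.15, adjusted p = 0.00641, edgeR). BCL6, the germinal centre repressor, fell from 428 ± 38.1 CPM to 56.03 ± 2.88 at day 19 and stood at 135 ± 3.89 at day 40, with log2 fold changes of -2.93 and -1.67 (adjusted p = 1.68e-10 and 1.27e-08, edgeR). XBP1, which drives the secretory programme, was lower, with log2 fold changes of -0.52 and -0.35 (adjusted p = 9.88e-04 and 0.0122, edgeR). MEF2C was lower (-1.85 at day 19), and EBF1 (1.19), ID3 (1.398) and TCF3 (0.74) were higher (adjusted p = 3.49e-08, 5.99e-07, 8.51e-07 and 7.18e-06, edgeR). Between day 40 and day 19, BCL6 and MEF2C rose by 1.26 and 0.63, and EBF1, ID3 and TCF3 changed by -0.53, -0.46 and -0.40, all called.

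Genes of antibody folding and secretion were mostly lower in femurs. Of 38 listed, 37 were tested; 2 were higher and 27 lower at day 19 against culture, 2 and 23 at day 40, and 3 and 0 at day 40 against day 19. The share called lower was 73.0% at day 19, beside 26.5% of all genes, and 62.2% at day 40, beside 23.3%. Between the femur groups the share called higher was 8.11%, beside 3.23% of all genes. With the replicate block by sampling period, 5 and 0 were called at day 40 against day 19, DNAJC3 and PDIA6 being added. The list's median log2 fold change was -0.48, -0.30 and 0.12. At day 19 SEC11C, a signal peptidase subunit, changed by -0.95, SEC61B of the translocon by -0.88, and ERP44, which retains unassembled IgM, by -0.83 (adjusted p = 1.78e-06, 2.84e-06 and 9.80e-07, edgeR). The stress-response proteins CRELD2, MANF and SDF2L1 changed by -0.76, -0.73 and -0.86 (adjusted p = 1.26e-06, 1.42e-06 and 2.57e-06, edgeR). The exceptions were DNAJB9 and SYVN1, a ubiquitin ligase of the endoplasmic reticulum, which was higher by 0.43 (adjusted p = 5.75e-04, edgeR). MZB1, a chaperone of marginal zone and plasma cells, read 240.5 ± 11.6, 228 ± 17.8 and 236 ± 18.6 CPM and was not called, nor was HSP90B1. PDIA3, ERP44 and DERL1 rose from day 19 to day 40 by 0.28, 0.28 and 0.30 (adjusted p = 0.0176, 0.038 and 0.0236, edgeR). TENT5C was not called in any comparison, and ELL2 was too low to be tested.

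Among the partners of surface immunoglobulin, both signalling subunits fell. CD79A, which with CD79B forms the signalling part of the B-cell receptor, read 730.1, 790.4 and 658 CPM in culture, 373, 349 and 393 at day 19 and 399.96, 430.3 and 409.6 at day 40. All femur libraries lay below all culture libraries, with log2 fold changes of -0.96 and -0.81 (adjusted p = 9.97e-07 and 7.23e-06, edgeR). CD79B changed by -0.44 and -0.50 (adjusted p = 0.0111 and 0.00652, edgeR). CD22, an inhibitory co-receptor, went from 972 ± 113 CPM to 205 ± 4.65 at day 19 and 425 ± 51.4 at day 40, and it was called in all 3 comparisons. CD72 and SIGLEC10, which also inhibit, were higher at day 19, by 1.47 and 0.42, and PLCG2 and LYN were lower, with log2 fold changes of -0.56 and -0.79 (adjusted p = 1.54e-05, 0.00556, 2.08e-05 and 4.30e-05, edgeR). Of 15 listed, 14 were tested. At day 19 against culture, 3 were higher and 6 lower (64.3% called, beside 52.8% of all genes), and at day 40, 4 and 5 (64.3%, beside 46.6%). Between the femur groups 3 were higher and 0 lower (21.4% called, beside 4.68% of all genes). The list's medians in the 3 comparisons were -0.16, -0.10 and 0.12.

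Genes of Fc receptors, their Fc receptor-like relatives and the polymeric immunoglobulin receptor were called in both directions. Not all of the relatives on this list, such as FCRL1, FCRL2 and FCRLA, are established to bind antibody. Of 20 genes 14 were tested, and 8 were higher and 3 lower at day 19 against culture. The share called higher was 57.1%, beside 26.3% of all genes, and the share called lower was 21.4%, beside 26.5%. At day 40 against culture 9 were higher (64.3%, beside 23.3% of all genes) and 3 lower (21.4%, beside 23.3%). Between the femur groups 1 was higher and 1 lower (14.3% called, beside 4.68% of all genes). With the replicate block by sampling period 4 were higher and 1 lower, FCMR, FCRLA and FCRLB being added. The list's medians in the 3 comparisons were 0.98, 1.12 and 0.20, where all genes had 0.01, 0.01 and 0.00. FCMR, the IgM receptor, rose from 0.672 ± 0.373 CPM to 5.60 ± 0.529 and 9.65 ± 1.89 (adjusted p = 4.02e-06 and 8.51e-07, edgeR). FCRL1 rose from 26.1 ± 10.0 to 194 ± 3.17 and 177 ± 5.33 CPM (adjusted p = 1.04e-07 and 2.77e-07, edgeR), while FCRLA fell from 576 ± 63.9 to 295 ± 14.3 and 364 ± 9.83 (adjusted p = 1.17e-06 and 4.28e-05, edgeR). FCGR2B, the inhibitory IgG receptor, was not called (18.8 ± 2.503, 23.0 ± 1.90 and 21.9 ± 3.67 CPM), and FCGR2C, a near copy of it whose reads may be split with it, was called higher at both times.

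**Figure D5:**
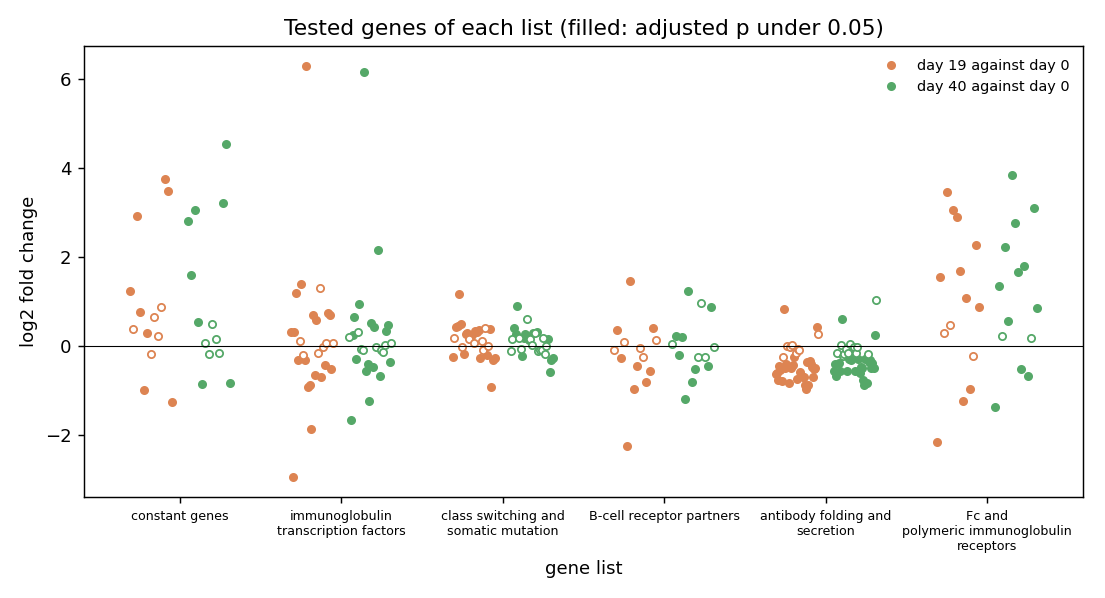
Log2 fold change of each tested gene of the 6 lists at day 19 and day 40 against culture (filled points, adjusted p under 0.05 in edgeR). The folding and secretion genes lie mostly below 0, with medians of -0.48 and -0.30, and the highest points are IRF4.

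IGLL1, which belongs to the surrogate light chain of pre-B cells and is related to the lambda constant genes, had 97, 107 and 92 counts in the culture libraries, 6239, 7227 and 8376 in those of day 19 and 3363, 5740 and 3514 in those of day 40. All 3 groups stood apart, with day 19 highest, at log2 fold changes of 6.27 and 5.20 against culture (SE 0.20 and 0.19, adjusted p = 4.64e-10 and 3.92e-09, edgeR). Its partner VPREB1 read 0.989 ± 0.451, 2.17 ± 0.295 and 1.29 ± 0.328 CPM and was called higher at day 19 and not at day 40 (adjusted p = 0.00895, edgeR). VPREB3 was lower at both times (-0.60 and -0.69, adjusted p = 0.00145 and 7.33e-04, edgeR).

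Markers of B cells were present in every library, with 7 of 7 tested and a summed level of 4109 to 5167 CPM in culture, 2779 to 3014 at day 19 and 3259 to 3488 at day 40. The sum was lower in every femur library than in every culture library, as were IGHG2 and JCHAIN. The 8 plasma cell markers summed to 549 to 666 CPM in culture, 528 to 569 at day 19 and 489.7 to 553 at day 40, ranges that overlap. These markers were called in both directions, SDC1 and IRF4 higher and TNFRSF17 and XBP1 lower at day 19, and SDC1, PRDM1 and IRF4 higher and TNFRSF17, XBP1 and CD38 lower at day 40. Of the 7 tested, 57.1% were called at day 19, near the 52.8% of all genes, with 28.6% in each direction beside 26.3% higher and 26.5% lower. At day 40, 85.7% were called, beside 46.6% of all genes, with 42.9% in each direction beside 23.3%. SDC1, the plasma cell surface proteoglycan CD138, had 0 counts in culture and 32 and 27 over the 3 libraries of day 19 and of day 40. Between the femur groups none of the 7 tested was called in edgeR's test, and TNFRSF17, higher, and CD38, lower, were with the replicate block (adjusted p = 0.0312 and 0.0469). T and NK cell markers summed to 2.75 to 3.83, 1.31 to 2.10 and 1.35 to 2.08 CPM, with CD2 at 0, and those of erythroid cells to at most 0.164 CPM, with HBB and HBA2 at 0. Myeloid markers summed to 2.42 to 5.94 CPM over the 9 libraries, with S100A8 and S100A9 at 0. Endothelial markers summed to 4.42 to 7.60, 1.61 to 3.08 and 3.28 to 4.24 CPM, with CDH5, KDR and TEK at 0 and PECAM1 the only 1 of 4 detected. Of the 6 stromal markers PDGFRB alone was called, higher at both times as IGHA1 and IGHE were, with 3 counts over the culture libraries, 349 over those of day 19 and 283 over those of day 40. COL1A2, COL3A1 and CXCL12 were at 0, and LEPR was not called (log2 fold change -0.15 and -0.27). COL1A1 had too few counts to be tested, with 5 over the culture libraries and 8 over those of day 19. It had 39, 16 and 2 counts in the day 40 libraries. The sum of the 6 was 0.698 to 1.32 CPM in culture, 4.97 to 7.54 at day 19 and 4.34 to 5.29 at day 40. The part of other cells and of mouse reads in these results was not tested.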

How the data were processed

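RNA-seq libraries of DOHH2 cells (culture, day 19 femur and day 40 femur, 3 each) were used as deposited, as whole-number counts of reads per gene that the authors had not normalized. Reads were processed with FastQC 0.11.5, STAR 2.5.2a on hg38 and featureCounts 1.4.6, per the submitters' processing notes. The annotation, the strand setting and the way multi-mapping and mouse reads were handled were not given in the sources used here. Names and positions came from GENCODE release 29, which matched 57980 of 58243 identifiers. Multi-mapping and antisense overlap can change the counts of the gamma and lambda genes.

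In R 4.3.3, edgeR 4.0.16 filtered genes with filterByExpr (15163 left), scaled by TMM and ran the quasi-likelihood F-test with 1 coefficient per group over 9 libraries. P-values were adjusted by Benjamini-Hochberg over all genes, with calls at 0.05. Class sums were tested in the same table in place of their genes. Shares were tested with exact two-sided permutation tests. Libraries held 21071239 to 29456271 counts. Libraries were assigned to sampling periods by the dates in the titles. Correlations of their deviations from group means exceeded 0.1 in all 3 same-period pairs of day 19 with day 40 (0.10 to 0.31). These were taken as paired. Culture with day 19 exceeded 0.1 in 1 of 3 same-period pairs (-0.05 to 0.12) and culture with day 40 in 2 of 3 (0.08 to 0.20). By this cutoff neither was taken as paired. For culture with day 40, all same-period pairs still lay above all different-period pairs (-0.20 to 0.02), so a pairing there is not excluded. None of the 18 different-period pairs of any groups exceeded 0.1 (-0.20 to 0.09). The main test used no pairing in any comparison. The pairing entered only through the sampling-period block, run as an alternative. Alternatives were RLE and total-count scaling, scaling without immunoglobulin genes, no low-count filter, DESeq2 1.42.0, limma 3.58.1 voom, 2 groups only, a sampling-period block and each library left out.

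The members and lists were chosen with earlier results of these data known. The text names all 10 members, the other constant genes, up to 4 called genes per list and comparison with the smallest p, up to 2 not called with the highest CPM, and a few genes always named, among them CD79A and XBP1. Results for some listed genes are not reported here, and the lists are counted without them. Reference windows of 50 and 100 bases were compared among all GENCODE transcripts.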

Additional observations from a re-analysis of the deposited data

Results flagged for a closer look

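The change of IGHA1 from culture differed between the femur times: the difference, tested directly as day 40 against day 19, was 1.57 on the log2 scale (SE 0.22, adjusted p = 0.00143, edgeR), and IGHA1 was higher in 3 of 3 day 40 libraries than in every day 19 library. Over the 17 alternatives the adjusted p ranged from 5.67e-14 to 0.0144.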

How the results depend on the processing

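Of 306 values of single members under the alternatives, 290 kept their direction and their side of the threshold. At day 40 against day 19 the number of called members was 2 in place of 1 with total-count scaling, without the low-count filter, with DESeq2 and with 2 groups only, and 1 to 2 when 1 library was left out; the added call was JCHAIN. Leaving out 1 library gave 4 to 5 called members at day 19 and 4 to 5 at day 40 against culture. With the replicate block by sampling period, 5, 4 and 1 members were called in the 3 comparisons, as without it, and the block changed no call of a member or class sum. Over all genes it gave 8319, 7361 and 966 calls in place of 8007, 7065 and 710. Besides the calls given with the gene lists, it added MEF2B, IFITM1 and PECAM1 at day 40 against day 19. Against culture it changed the calls of 4 listed genes at day 19 and 8 at day 40. At day 19 it added DCLRE1C and FCGRT, higher, and DNAJB11 and LMAN1, lower. At day 40 it added RIF1 and IFITM1, higher, and CD81, LYN, DNAJC3, SUPT5H and PECAM1, lower, while PAXIP1 was lost. The B-cell receptor partners then had 5 higher and 7 lower at day 40, and the folding genes 29 lower at day 19. IGHG4 was also called lower without the low-count filter (-0.21 at both times, adjusted p = 0.0420 and 0.0466, edgeR). Its near-zero difference between the femur groups changed sign without that filter (2.18e-04), and ran from -0.0362 to 0.0487 when 1 library was left out, above 0 without day 19 library 1 or day 40 library 1. IGHG3 at day 40 against culture ran from -0.0138 to 0.127, below 0 without day 40 library 2. The day 19 difference in lambda share ranged from -0.00185 to 0.00176 percentage points when 1 library was left out (7.79e-04 without culture library 1 or 3). Total-count scaling moved the median of all genes to 0.10 at day 19 and gave 4652 higher and 3216 lower calls against 3994 and 4013 (day 40: 4155 and 2650 against 3527 and 3538).

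Depth limited IGHM, IGHD, IGKC and IGLC2, which had at most 11 counts in a library. With 3 libraries a group, the exact tests of shares could not pass 0.05. The paralog and strand limits named with the gamma, lambda and JCHAIN results apply under every alternative.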
